A study of Mus musculus with 6 samples.

Results

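The genes described here are the 9 Toll-like receptors Tlr1, Tlr2, Tlr3, Tlr4, Tlr6, Tlr7, Tlr8, Tlr9 and Tlr13 and the endotoxin co-receptor Cd14, taken by symbol from a table of 17459 genes. All 10 were found and all 10 passed the filter on low counts. RNA was sequenced from brain microglia of male C57BL/6J mice labelled as 8 weeks old, in 3 libraries from conditional knockouts (cKO, Mir137loxP/loxP;Tmem119-CreERT2) and 3 from controls (cWT, Mir137+/+;Tmem119-CreERT2). Both genotypes carried the tamoxifen-inducible Cre, driven from the microglial gene Tmem119, and both received tamoxifen on 7 days in a row between 7 and 8 weeks of age. The comparison asks what loss of miR-137 in microglia changes. The design text gives 4 mice for the isolation of microglia and does not tie the 3 libraries of a genotype to single mice, so p-values measure the spread between these libraries, which may be technical.

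Toll-like receptors are sensors of microbial and damaged-cell molecules. Those at the cell surface (Tlr1, Tlr2, Tlr4, Tlr6) bind lipids and lipoproteins, and those in endosomes (Tlr3, Tlr7, Tlr8, Tlr9, Tlr13) bind nucleic acids. Most signal through the adaptor Myd88 and some through Ticam1, towards NF-kB and interferon regulatory factors. Microglia, the macrophages of the brain parenchyma, carry most of these receptors.

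Total estimated counts lay between 12068698 and 15212806 in cKO and between 16503817 and 17482042 in cWT. The deletion itself was not checked, because the authors' deposited table lists Mir137 with base mean 0 and no per-library value was analysed here. The 12 microglial markers were measured in each library and summed to 34720 to 39160 CPM in cKO and 37260 to 39610 CPM in cWT. Differences between the genotypes were widespread, with 72.1% of 13490 tested genes called at an adjusted p under 0.05. Fold changes also followed transcript length (Spearman correlation of -0.72 across 13408 genes, which are not independent replicates). Values with offsets that reduce the trends with transcript length and GC content are therefore given beside those of the 10 genes and of the pathway genes named.

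The receptors did not move as a block. Cd14 rose 2.87-fold and Tlr9 fell to 11.7% of its cWT level, while the other receptors changed by less than 2-fold or were not called. Of the 10 genes, 2 were called higher (Cd14 and Tlr7), where 35.6% of all tested genes were, and 6 were called lower (Tlr1, Tlr2, Tlr3, Tlr6, Tlr8 and Tlr9), where 36.5% were. Tlr4 and Tlr13 were not called. The genotypes did not overlap for 6 of the 10, and for 74.6% of all tested genes. At least 2-fold changes were called for 1 gene up (Cd14, background 19.0%) and 1 down (Tlr9, background 19.6%). The median log2 fold change was -0.38 for the 10 genes and -0.02 for all tested genes. With the length and GC offsets it was -0.16 for the 10 genes and 0 for all genes with a known length. In bulk RNA, fewer cells that express a gene and less RNA per cell cannot be told apart.

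**Figure D1:**
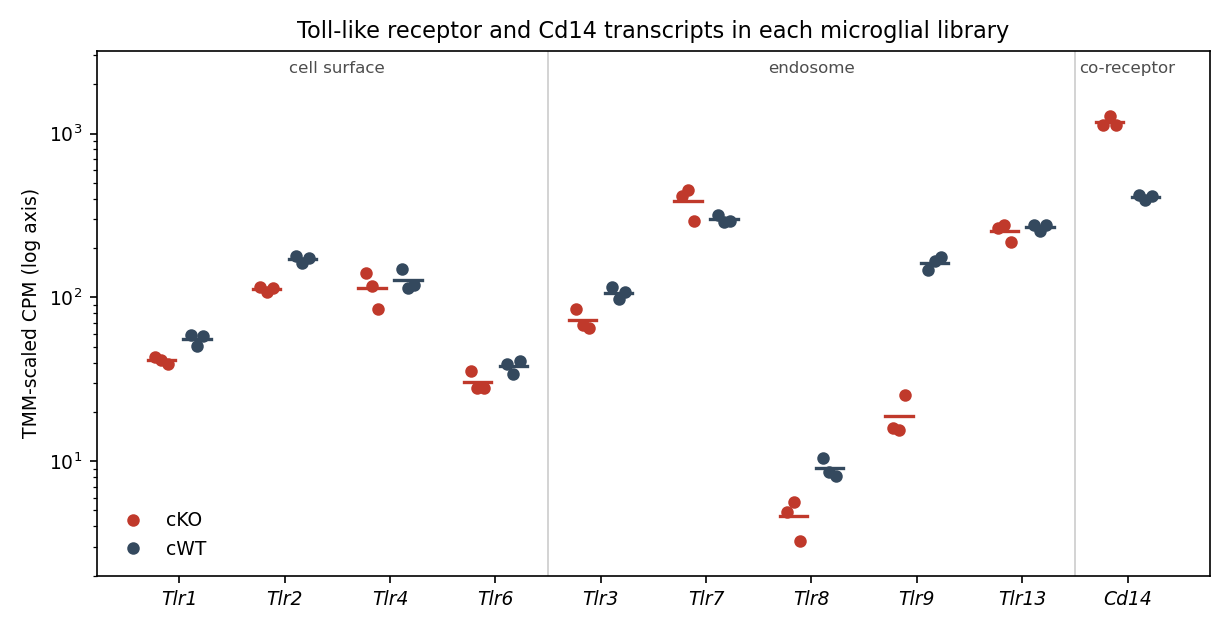
TMM-scaled CPM (log axis) of the 9 receptors and Cd14 in each of the 3 cKO and 3 cWT libraries, with points for libraries and lines for group means. Tlr9 lies between 15.4 and 25.5 CPM in cKO, against 146 to 177 in cWT, and Cd14 between 1120 and 1284 CPM in cKO, against 393 to 423 in cWT.

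Tlr9, the endosomal receptor for unmethylated CpG DNA (chromosome 9, 106222598 to 106226876 in RefSeq, GRCm38.p6, as for all gene positions here), had 164, 174 and 336 estimated counts in the cKO libraries and 2750, 3242 and 3498 in the cWT libraries. This corresponds to 19.0 ± 5.68 CPM in cKO and 163 ± 15.5 CPM in cWT (SD, n = 3 each). The genotypes were far apart, and cKO replicate 3 stood above the other cKO libraries. The log2 fold change was -3.09 (SE 0.15, edgeR adjusted p = 1.247e-11), with 0.363% of tested genes lower still. With the offsets it was -2.65 (SE 0.12, edgeR adjusted p = 4.606e-13). Leaving out any 1 library gave values from -3.36 to -2.95.

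Tlr9 is also known from B cells and plasmacytoid dendritic cells, so the levels of their markers are given beside it. Of 7 such markers, Ms4a1 and Ccr9 were too low to be tested (Ms4a1 averaged 0.834 CPM in cKO and 0.347 CPM in cWT), and none was at 0 in all libraries. Among the 5 tested, Cd79b and Bst2 rose and Ebf1 and Tcf4 fell, where 35.6% of all tested genes rose and 36.5% fell. The 7 markers summed to 306 to 387 CPM in cKO and 217 to 244 CPM in cWT. In cKO most of that sum was Bst2 (255 CPM in cKO and 77.4 CPM in cWT). The other 6 summed to 88.9 to 98.7 CPM in cKO and 146 to 160.4 CPM in cWT. Of these 6, Tcf4 had the highest mean in both genotypes (47.3 CPM in cKO and 118 CPM in cWT). Cd79b had 40.2 CPM in cKO and 17.3 CPM in cWT. The direction of such sums thus depends on the gene left out. With the offsets 1 of the 5 tested was called higher and 1 lower, where 29.6% and 27.6% of all genes were. The part of these markers in the fall of Tlr9 was not tested.

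The RefSeq promoter window of Tlr9, from 250 bases before to 50 bases after the annotated start (GRCm38.p6, chr9:106222348-106222647, plus strand), is shown because this gene fell most among the receptors. Capitals mark an AP-1 motif and a PU.1 motif on the opposite strand.
Tlr9 promoter: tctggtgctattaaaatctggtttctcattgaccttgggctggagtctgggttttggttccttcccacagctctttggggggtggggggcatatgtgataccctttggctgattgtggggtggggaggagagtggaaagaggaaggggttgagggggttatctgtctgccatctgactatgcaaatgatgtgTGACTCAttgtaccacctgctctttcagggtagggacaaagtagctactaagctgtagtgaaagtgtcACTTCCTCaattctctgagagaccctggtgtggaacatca
Windows were at hand for 7 of the 10 genes, 9 windows in all since Tlr1 and Tlr6 have 2 starts each. On both strands, PU.1 was searched as GAGGAAGT or GAGGAAC, AP-1 as TGANTCA, the interferon-stimulated element ISRE as its core TTTCNNTTT and NF-kB as GGGANTTTC or GGGACTTCC. Tlr9 and 1 window of Tlr1 held PU.1, which 8.16% of 32851 RefSeq promoter windows hold. Among these windows AP-1 was found in Tlr9 only (7.81% of all windows), the ISRE core in Tlr2, Tlr3 and 1 window of Tlr6 (10.55%) and NF-kB in Tlr3 (1.94%). Such matches describe the letters of these windows and not binding. Other spellings of these motifs were not searched, so a window without a match may still hold one.

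Mature miR-137, the arm miR-137-3p (chr3:118433901-118433923, plus strand, GRCm38.p6, from RefSeq), is shown with its seed in capitals, followed by the stretches of 3' UTR that hold the 6-base core of its seed match, also in capitals.
mmu-miR-137-3p: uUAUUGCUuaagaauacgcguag
Tlr4 3' UTR: ctactgaatGCAATAttaaatagc
Tlr9 3' UTR: ggcaagtgcGCAATAtatgctacc
None of the 10 genes had the 7-base match AGCAATA in its longest annotated 3' UTR, against 10.7% of 13024 tested genes. The 6-base core GCAATA stood in 2 of 10, against 23.1% of tested genes. The 3' UTRs of the 10 genes are short, with a median of 340 bases against 1367 bases over all tested genes. Of these 2 genes, Tlr9 fell and Tlr4 was not called. Within the Tlr9 window above, as within the other 8, there was no AGCAATA on either strand, where 2.16% of all windows hold it. These windows lie mostly before the annotated start, so this says nothing about sites in the transcripts.

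Cd14, a membrane-anchored protein that hands endotoxin to Tlr4 (chromosome 18, 36725064 to 36726815), had 11608, 14501 and 14759 counts in cKO and 7949, 7676 and 8236 in cWT. Every cKO library was above every cWT library. Its level was 1178 ± 91.9 CPM in cKO and 411 ± 15.8 CPM in cWT (SD, n = 3 each), with a log2 fold change of 1.52 (SE 0.10; edgeR quasi-likelihood adjusted p = 3.345e-10). The principal transcript has 1641 bases, the shortest of the 10, and with the offsets the log2 fold change was 0.75 (SE 0.08, edgeR adjusted p = 3.609e-08).

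Cd14 is also made by monocytes and neutrophils. Of 9 tested neutrophil markers, 5 rose (S100a8, S100a9, Retnlg, Camp and Cxcr2) and 3 fell (Mmp9, Ltf and Csf3r), and their summed level was 11770 to 16220 CPM in cKO and 4982 to 5409 CPM in cWT. Without S100a8 and S100a9 the other 7 summed to 2447 to 2982 CPM in cKO and 2479 to 2642 CPM in cWT, which overlap. Of 6 monocyte markers, Ly6c2, Plac8 and Chil3 rose and Ccr2 and Fn1 fell, with sums of 1085 to 1393 CPM in cKO and 866 to 980.4 CPM in cWT. Without Chil3 the other 5 summed to 383 to 483 CPM in cKO and 526 to 589 CPM in cWT. Of these 5, Fn1 fell most in level (94.5 CPM in cKO and 396 CPM in cWT). Ly6c2 (177 CPM in cKO and 68.4 CPM in cWT) and Plac8 (152 CPM in cKO and 42.6 CPM in cWT) rose. The direction of such sums thus depends on the gene left out. Of 8 markers of border-associated macrophages, 4 rose (Lyve1, Pf4, Cbr2 and Ms4a7) and 1 fell (Mrc1). The 8 summed to 790 to 977 CPM in cKO and 826 to 1037 CPM in cWT, which overlap. Mrc1 had the highest mean of the 8 in both genotypes (247 CPM in cKO and 440 CPM in cWT). This sum thus leans on the 1 gene that fell. With the offsets 2 neutrophil markers were called higher and 5 lower, and no monocyte marker higher and 4 lower. Of the border macrophage markers, 3 were then called higher and 3 lower. Over all tested genes 35.6% were called higher and 36.5% lower, and with the offsets 29.6% and 27.6%. None of these markers was at 0 in all libraries, and their part in the change of Cd14 was not tested.

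Tlr4, which binds endotoxin together with its partner Ly96 (chromosome 4, 66827551 to 66846581), had 141, 117 and 84.7 CPM in cKO and 148, 115 and 120 CPM in cWT. The genotypes overlapped, and cKO replicate 3 was the lowest library. The log2 fold change was -0.16 (SE 0.15, edgeR adjusted p = 0.352) and 0.04 with the offsets. Without cKO replicate 1 it was called lower, at -0.34 (edgeR adjusted p = 0.0351), and without cKO replicate 3 it stood at 0.04. When libraries were scaled by total counts alone it was called at -0.56 (edgeR adjusted p = 0.00273).

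The ratio of Cd14 to Tlr4 counts does not depend on scaling between libraries, but it does depend on the trend with length, since the transcripts have 1641 and 4077 bases. On the log2 scale, with a pseudocount of 0.5, it was 3.0, 3.45 and 3.73 in cKO and 1.51, 1.77 and 1.80 in cWT. Each cKO library was above each cWT library. The means differed by 1.70, with 3.39 ± 0.36 in cKO and 1.70 ± 0.16 in cWT (SD, n = 3 each). The two-sided exact permutation test gave p = 0.1, the smallest that 3 against 3 libraries can give. With the length and GC offsets taken from each library the means differed by 0.72 (2.904 ± 0.225 in cKO and 2.185 ± 0.051 in cWT, SD, n = 3 each, exact permutation p = 0.1), without overlap. With offsets for length alone they differed by 0.46 (exact permutation p = 0.3), and the genotypes overlapped.

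Tlr2 forms the receptors for bacterial lipoproteins with Tlr1 or Tlr6 as partner. It had 115, 108 and 114 CPM in cKO and 178, 163 and 174 CPM in cWT, with no overlap. It fell by 0.61 on the log2 scale (SE 0.09, edgeR adjusted p = 7.43e-06) and stood at -0.57 with the offsets.

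Tlr1 and Tlr6 lie side by side on chromosome 5 (64924680 to 64933600 and 64953092 to 64970942) and share part of their coding sequence, so that reads can be split between them. Of the 75-base windows of their transcripts, 11.5% in Tlr1 and 9.44% in Tlr6 recur in the partner, while no such window of the other 8 genes recurs in another annotated transcript. The longest identical run, 229 bases inside the coding sequence of both, is shown because it makes their separate levels uncertain.
Tlr1 and Tlr6, shared run: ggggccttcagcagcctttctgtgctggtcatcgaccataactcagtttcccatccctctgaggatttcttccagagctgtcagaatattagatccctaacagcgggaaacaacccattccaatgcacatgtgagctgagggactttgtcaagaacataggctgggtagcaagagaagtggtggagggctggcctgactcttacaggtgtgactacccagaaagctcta
Both had counts that were not whole in 5 of 6 libraries, whereas the counts of the other 8 genes were whole. Tlr1 had 43.5, 41.5 and 39.1 CPM in cKO and 59.0, 50.3 and 58.5 CPM in cWT, without overlap. Its log2 fold change was -0.43 (SE 0.10, edgeR adjusted p = 0.001103) and -0.49 with the offsets. Tlr6 had 35.3, 27.8 and 27.9 CPM in cKO and 39.2, 34.0 and 41.0 CPM in cWT, and its genotypes overlapped.

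Tlr6 was called at -0.33 (SE 0.12, edgeR adjusted p = 0.0241) but not with the offsets (-0.12, edgeR adjusted p = 0.380). Its call was also lost without cKO replicate 2 or 3 or cWT replicate 1 or 3, with edgeR adjusted p from 0.0662 to 0.119 for these. Taken as 1 gene, Tlr1 and Tlr6 together had 71.7 ± 6.27 CPM in cKO and 94.0 ± 8.43 CPM in cWT (SD, n = 3 each), with a log2 fold change of -0.39 (SE 0.10; edgeR quasi-likelihood adjusted p = 0.002317). This sum was chosen after the data were seen.

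Among the endosomal receptors, Tlr7 (chromosome X, 167303380 to 167330574) and Tlr8 (167241123 to 167264329) are neighbours on the X chromosome. Tlr7 senses single-stranded RNA. Tlr7 had 416, 450 and 292 CPM in cKO and 319, 287 and 293 CPM in cWT. The first 2 cKO libraries stood above all cWT libraries and cKO replicate 3 lay among them. The log2 fold change was 0.36 (SE 0.13, edgeR adjusted p = 0.0172) and 0.53 with the offsets (edgeR adjusted p = 1.583e-05). The call was lost without cKO replicate 1, cKO replicate 2, cWT replicate 2 or cWT replicate 3 (edgeR adjusted p of 0.0674, 0.117, 0.0698 and 0.0590), and with scaling by total counts alone the sign turned (-0.03, edgeR adjusted p = 0.854).

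Tlr8 was the scarcest of the 10, with 50, 64 and 43 counts in cKO and 196, 167 and 161 in cWT. This is 4.60 ± 1.22 CPM in cKO and 9.04 ± 1.22 CPM in cWT (SD, n = 3 each), without overlap. It fell by 0.98 on the log2 scale (SE 0.22, edgeR adjusted p = 0.0006168) and stood at -1.01 with the offsets. Whether the neighbours Tlr7 and Tlr8 differed in their response was not tested.

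Tlr3, which senses double-stranded RNA and signals through Ticam1, had 85.2, 67.7 and 65.4 CPM in cKO and 116, 97.4 and 107 CPM in cWT. The genotypes did not overlap, and cKO replicate 1 was the highest of its group. The log2 fold change was -0.56 (SE 0.11, edgeR adjusted p = 0.0002124). It was smaller with the length and GC offsets, at -0.21 (edgeR adjusted p = 0.0355), and was not called with offsets for length alone (0.04, edgeR adjusted p = 0.805). An annotated antisense gene overlaps Tlr3, and whether strand was used in the counting is not given in the labels.

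Tlr13, a mouse receptor for bacterial ribosomal RNA on the X chromosome (106143275 to 106160493), had 266, 275 and 219 CPM in cKO and 276, 252 and 276 CPM in cWT. The genotypes overlapped, with a log2 fold change of -0.08 (SE 0.10; edgeR quasi-likelihood adjusted p = 0.484). It was called in opposite directions under other settings, at 0.22 with the offsets (edgeR adjusted p = 0.0121) and at -0.47 with scaling by total counts alone (edgeR adjusted p = 0.0005244).

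**Figure D2:**
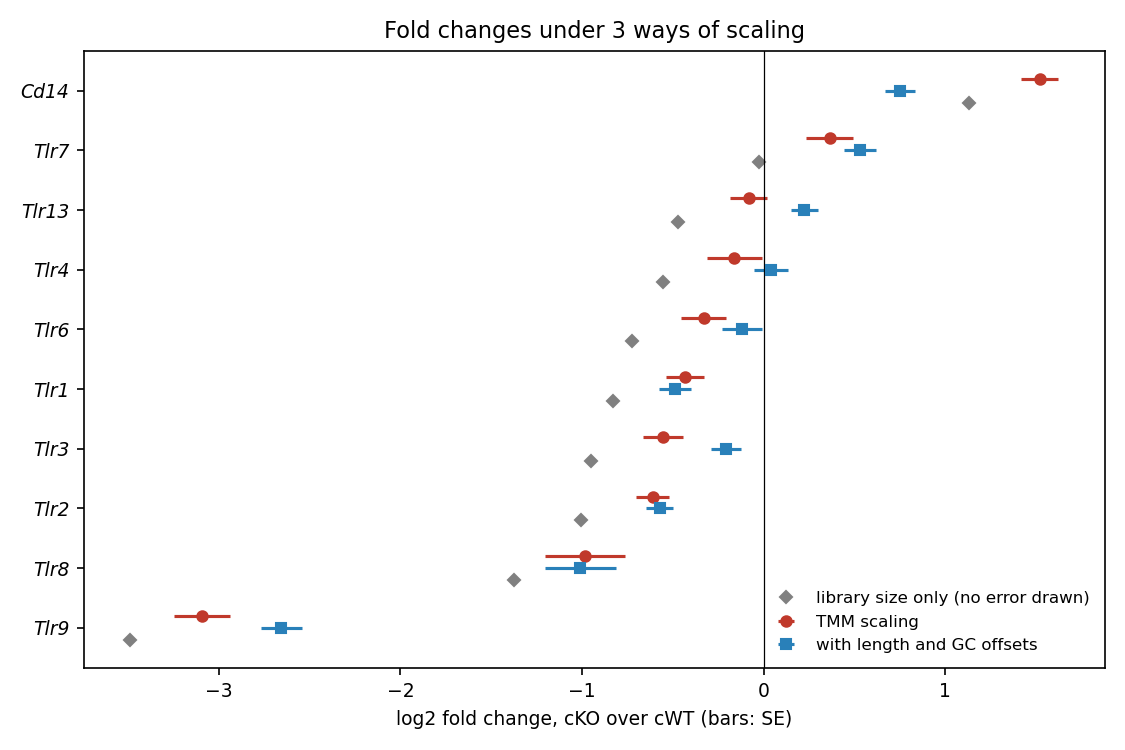
Log2 fold change of each gene, cKO over cWT, with TMM scaling (circles), with the length and GC offsets (squares) and with scaling by total counts alone (diamonds); bars are SE, and diamonds have none drawn. Tlr9 stays at -2.65 or lower and Cd14 at 0.75 or higher in all 3, while Tlr4, Tlr7 and Tlr13 change side of 0.

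With the offsets, Cd14, Tlr7 and Tlr13 were called higher, 3 of 10 where 29.6% of 13408 genes were. Tlr1, Tlr2, Tlr3, Tlr8 and Tlr9 were called lower, 5 of 10 where 27.6% were. Scaling by total counts alone moved the median over all genes to -0.41 on the log2 scale, and then 1 of the 10 was called higher (Cd14, background 24.7%) and 8 lower (background 50.0%). The transcripts of the 9 receptors run from 3014 bases in Tlr2 to 4407 bases in Tlr3, all above the median of 2997 bases over tested genes. Over this range of length, Tlr9 and Tlr7 lie at opposite ends in fold change. With offsets for length alone Tlr3 moved from -0.56 to 0.04 and Tlr2 from -0.61 to -0.53. The part of length in the spread between the receptors was not tested. The GC content of their transcripts runs from 39.4% in Tlr4 to 56.2% in Tlr9.

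**Figure D3:**
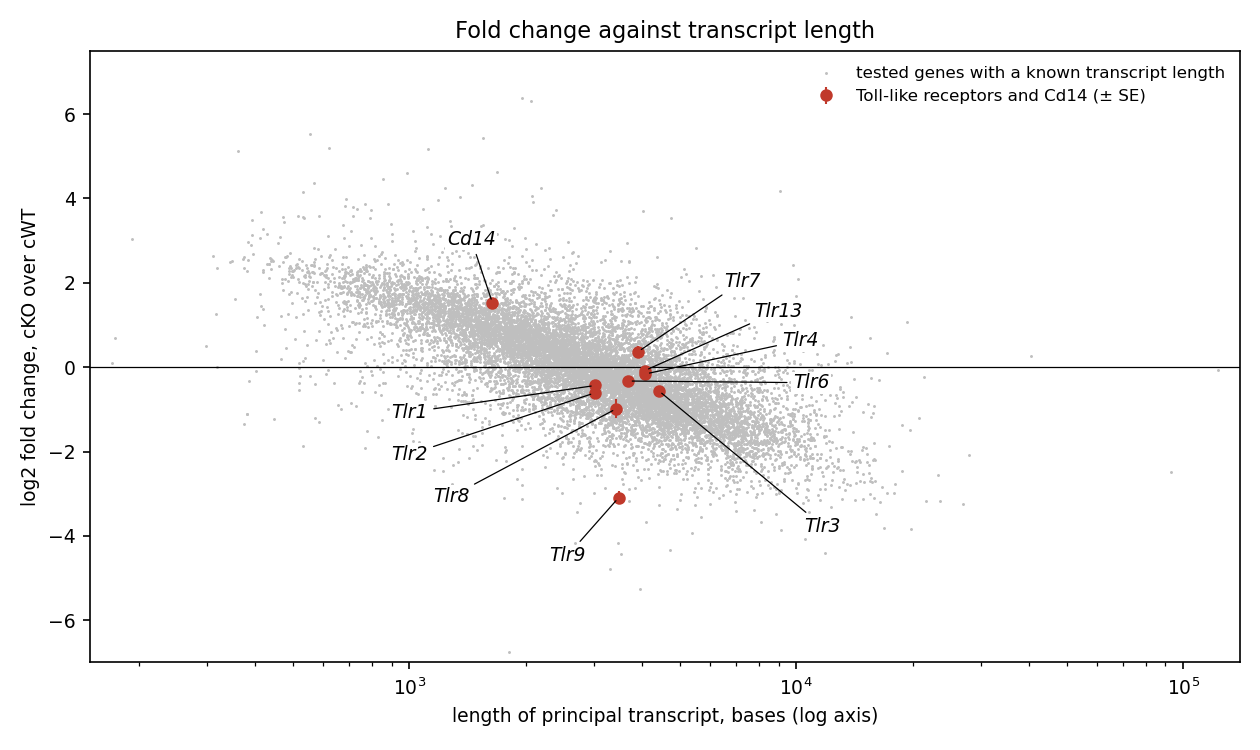
Log2 fold change, cKO over cWT, against the length of the principal transcript (log axis) for tested genes with a known length (grey) and for the 10 genes (red, bars for SE); genes beyond the vertical range are not drawn. Cd14 lies at 1641 bases and 1.52, and Tlr9 at 3478 bases and -3.09.

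Per kilobase of transcript, cKO libraries had Cd14 first with 718 ± 56.0 CPM per kb, then Tlr7 (99.0 ± 21.4), Tlr13 (62.4 ± 7.40), Tlr2 (37.2 ± 1.31), Tlr4 (28.0 ± 6.92), Tlr3 (16.5 ± 2.45), Tlr1 (13.7 ± 0.732), Tlr6 (8.26 ± 1.17), Tlr9 (5.45 ± 1.63) and Tlr8 (1.34 ± 0.357). In cWT libraries the same order held except for Tlr9, with Cd14 at 250 ± 9.61 CPM per kb, Tlr7 at 77.0 ± 4.31, Tlr13 at 66.0 ± 3.33, Tlr2 at 56.9 ± 2.60, Tlr9 at 46.9 ± 4.46, Tlr4 at 31.3 ± 4.43, Tlr3 at 24.2 ± 2.10, Tlr1 at 18.5 ± 1.62, Tlr6 at 10.4 ± 0.987 and Tlr8 at 2.63 ± 0.355 (SD, n = 3 each). No 2 neighbours in either order had overlapping ranges, although Tlr6 and Tlr9 in cKO came close, with a lowest Tlr6 value of 7.56 and a highest Tlr9 value of 7.33 CPM per kb. These levels rest on the annotated length of 1 transcript per gene.

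The 9 receptors together gave 272 ± 35.5 CPM per kb in cKO and 334 ± 15.7 CPM per kb in cWT (SD, n = 3 each). Within that sum Tlr9 made up 1.56%, 1.53% and 3.17% in cKO and 12.1%, 15.1% and 15.0% in cWT. Tlr7 made up 36.3%, 39.8% and 32.4% in cKO and 23.6%, 23.3% and 22.3% in cWT. Both shares separated the genotypes, in opposite directions, and neither depends on scaling between libraries. They may still carry the trends with length and GC content, for which no offsets were taken here. The share of Tlr13 was 23.0% ± 0.612 in cKO and 19.8% ± 0.264 in cWT, and that of Tlr2 13.9% ± 2.19 in cKO and 17.1% ± 0.0417 in cWT. As parts of a whole, these shares are not independent of each other.

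**Figure D4:**
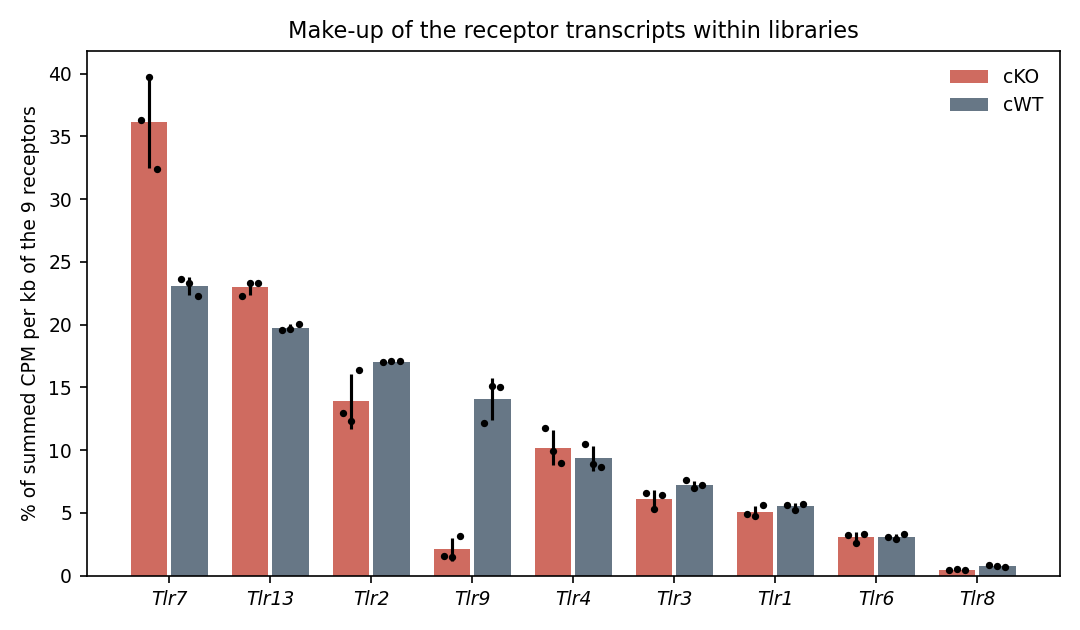
Share of each receptor in the summed CPM per kb of the 9 receptors (%), as means with SD bars and a point per library, for cKO and cWT. Tlr9 averages 2.09% in cKO and 14.1% in cWT, and Tlr7 averages 36.1% in cKO and 23.1% in cWT.

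The genes whose log2 CPM was most like that of Cd14 over the 6 libraries were Imp3, Coq7 and Anapc13 (Pearson correlations of 0.999 each), out of 10538 genes of sufficient level. For Tlr9 they were Olfml3, Ptpre and Plcb3 (0.9997 to 0.9999). Over 6 libraries in 2 genotypes such values mainly record the difference between the genotypes.

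Around the receptors, 82 further genes of the pathway were listed by role, of which 79 were tested. Of these, 25 rose and 37 fell, where 35.6% and 36.5% of all tested genes did, with a median of -0.30 on the log2 scale. With the offsets, 14 were called higher and 37 lower, where 29.6% and 27.6% of all genes were. These shares are also the background for the counts of each list by role below. All 4 receptors outside the 10 genes fell. Tlr5, the receptor for bacterial flagellin, had 4.60 ± 0.756 CPM in cKO and 33.5 ± 2.69 CPM in cWT (SD, n = 3 each), with a log2 fold change of -2.85 (SE 0.15; edgeR quasi-likelihood adjusted p = 2.375e-11) that stood at -2.74 with the offsets. Cd180, a receptor related to Tlr4, fell by 1.67 on the log2 scale, Tlr11 by 1.37 and Tlr12 by 1.14. With the offsets these 3 stood at -1.86, -1.34 and -0.82 and were still called. Tlr11 had few counts, with 2, 7 and 6 in cKO and 26, 16 and 23 in cWT. With offsets for length alone Tlr11 was not called (edgeR adjusted p = 0.0611).

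Of 12 co-receptors, chaperones and transport proteins, 7 rose and 3 fell, with a median of 0.28 on the log2 scale. With the offsets 2 were called higher and 2 lower, with a median of 0.03. With scaling by total counts alone the median of the list was -0.11, and that over all tested genes was -0.415. Ly96, the partner of Tlr4 also called MD-2, had 20.6 ± 1.46 CPM in cKO and 5.93 ± 0.850 CPM in cWT (SD, n = 3 each), with a log2 fold change of 1.79 (SE 0.16; edgeR quasi-likelihood adjusted p = 9.902e-09). It has a transcript of 0.632 kb and was not called with the offsets (-0.22, edgeR adjusted p = 0.226). Ly86, the partner of Cd180, rose by 1.55 and was likewise not called with the offsets (0.15). Lbp, which carries endotoxin to Cd14, rose by 1.47 and stood at 1.39 with the offsets. Ap3d1, a subunit of the AP-3 adaptor complex of vesicle transport, fell by 0.87 and was not called with the offsets (0.03, edgeR adjusted p = 0.733). Unc93b1, which escorts the nucleic acid receptors to endosomes, was not called, with 1047 ± 228 CPM in cKO and 1072 ± 94.1 CPM in cWT (SD, n = 3 each).

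Of 7 adaptors, 2 rose and 4 fell. Myd88, shared by all the receptors here but Tlr3, had 110 ± 10.8 CPM in cKO and 71.0 ± 4.94 CPM in cWT (SD, n = 3 each), with a log2 fold change of 0.63 (SE 0.10; edgeR quasi-likelihood adjusted p = 2.106e-05), and was not called with the offsets (0.17). Ticam1, the adaptor of Tlr3 and of endosomal Tlr4, fell by 0.73, Tirap, which links Tlr2 and Tlr4 to Myd88, by 1.02, and Pik3ap1 by 1.65. These 3 stood at -0.46, -0.43 and -0.999 with the offsets and were still called.

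Of 19 kinases and ubiquitin enzymes, 13 fell and 1 rose, where 36.5% and 35.6% of all tested genes did. Traf3, a ubiquitin ligase needed for interferon induction, had 7.12 ± 0.361 CPM in cKO and 39.5 ± 1.95 CPM in cWT (SD, n = 3 each), with a log2 fold change of -2.47 (SE 0.13; edgeR quasi-likelihood adjusted p = 1.87e-11) that stood at -1.17 with the offsets. Irak4, the kinase next to Myd88, fell by 0.50, Tab2 by 1.13, Tab3 by 1.42 and Traf6, which relays the signal to NF-kB, by 0.92. Traf6 was not called with the offsets (0.05), while Irak4, Tab2 and Tab3 were still called (-0.54, -0.585 and -0.52). Over this list 4 were then called higher and 11 lower.

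Of 6 transcription factors, Irf3 and Irf7 rose and Nfkb1, Rela and Rel fell. Irf3, an inducer of interferon beta, rose by 1.02 and stood at 0.75 with the offsets, while the NF-kB subunits Nfkb1, Rel and Rela fell by 0.93, 1.23 and 0.78. With the offsets Rel was not called (-0.13, edgeR adjusted p = 0.442), and Nfkb1 and Rela stood at -0.355 and -0.53. Of 11 inhibitors of signalling, 7 fell and 3 rose. Tnfaip3, which removes ubiquitin chains, fell by 1.36, Rnf216 by 0.97 and Cyld by 1.04, whereas Nfkbia, the inhibitor of NF-kB, rose by 1.37. With the offsets Cyld was not called (0.15), Tnfaip3, Rnf216 and Nfkbia were still called (-0.77, -0.62 and 0.56), and 1 of the list was called higher and 6 lower.

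Of 20 tested target genes of the receptors, 10 rose and 3 fell. Cxcl2, a neutrophil chemokine, had 65.4 ± 4.76 CPM in cKO and 10.7 ± 0.323 CPM in cWT (SD, n = 3 each), with a log2 fold change of 2.61 (SE 0.12; edgeR quasi-likelihood adjusted p = 3.812e-12). Il1b rose by 1.45 and the chemokine gene Ccl4 by 1.40, and Zfp36, whose protein destabilises cytokine transcripts, fell by 1.49. With the offsets the balance of this list turned, with 4 called higher and 9 lower, a median of -0.46 in place of 0.48, and Ccl4 not called (-0.34). Cxcl2, Il1b and Zfp36 were then still called, at 1.15, 0.29 and -1.42.

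**Figure D5:**
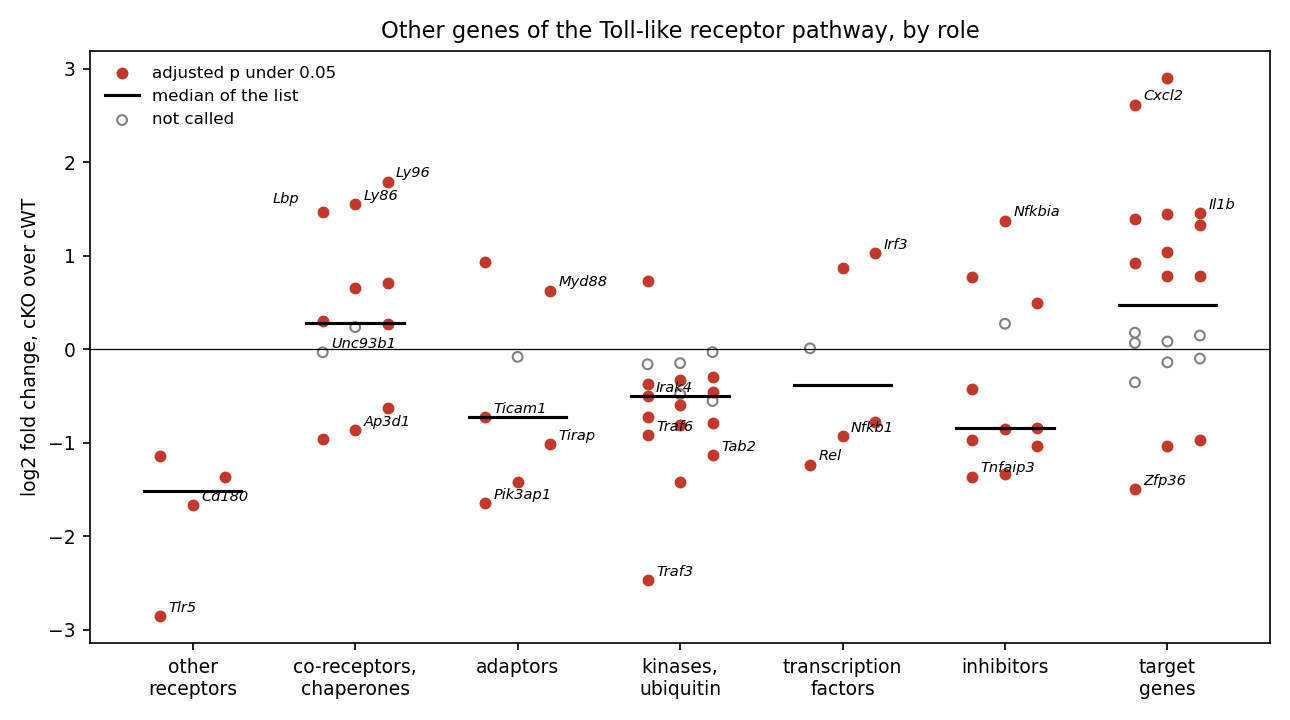
Log2 fold change, cKO over cWT, of the 79 tested pathway genes outside the 10, grouped by role; filled points were called at an adjusted p under 0.05, open points were not, and lines are the median of each list. Receptors lie lowest, with a median of -1.52, and target genes highest, with a median of 0.48 that is -0.46 with the length and GC offsets.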

How the data were processed

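The authors deposited estimated counts per gene symbol for 6 libraries, not scaled between them; 5.5% to 5.85% of the values in a library were not whole. The submitters' processing notes name STAR 2.7.9a, RSEM and DESeq2 and the builds GRCm38 and mm10 without their roles, and neither annotation nor strandedness is stated. The authors' deposited table of cKO over cWT holds a base mean (a signal averaged over scaled libraries), log2 fold changes, a Wald score and p-values, per the file headers; only the base mean of Mir137 is quoted from it.

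Counts were rounded and fitted over the whole table with edgeR 4.0.16 (R 4.3.3; quasi-likelihood, two-sided, TMM, filterByExpr at a minimum count of 10, robust, genotype as the only term). This left 13490 genes, with Benjamini-Hochberg adjustment over all of them. CPM values carry the TMM factors. SE values derive from the test statistic. Offsets were splines (5 degrees of freedom each) of log2 CPM deviations per library on principal transcript length and GC content from GENCODE M21 (GRCm38), and left a correlation with length of -0.084. The test was checked on simulated counts. miRNA and promoter sequences are from RefSeq, transcript and 3' UTR sequences from GENCODE.

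Alternatives were DESeq2 1.42.0, limma 3.58.1 (voom), other scalings and filters, each library left out, and the replicate number as a block. The members and lists were chosen with earlier results of these data known. All 10 members are named. Of each pathway list, up to 4 called genes with the smallest p are named, besides Myd88, Ly96, Unc93b1, Ticam1, Irak4, Traf6 and Tlr5; the other names complete a count of 5 or fewer and were chosen after their values were seen. Of the marker lists, 2 genes are not reported here. Marker lists were also taken for T and NK cells (1 of 4 tested higher), astrocytes (1 of 6 higher) and oligodendrocytes (4 higher and 1 lower of 6). Further lists were for endothelium (2 higher and 4 lower of 6) and neurons (1 of 1 higher). Over all tested genes 35.6% were called higher and 36.5% lower.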

Additional observations from a re-analysis of the deposited data

How the results depend on the processing

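Tlr1, Tlr2, Tlr8, Tlr9 and Cd14 kept their call and direction under every alternative run for them, 17 each and 18 for Tlr1, with log2 fold changes from -0.83 to -0.35, -1.01 to -0.53, -1.37 to -0.75, -3.49 to -2.65 and 0.75 to 1.58. Tlr3 lost its call with length offsets alone, which put it at 0.037, Tlr6 at 0.001 and Tlr13 at 0.386. Tlr13 turned to 0.224 with length and GC offsets, and Tlr7 to -0.028 with library size alone. The cause was not tested. Tlr6 lost its call in 7 of 18 alternatives and Tlr7 in 5 of 17.

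The count of the 10 genes called higher, 2, was 1 with library size alone and 3 with length and GC offsets. It lay between 1 and 2 with each library left out. The count called lower, 6, was 8 with library size alone, 5 with length and GC offsets and 4 with length offsets. It lay between 5 and 7 with each library left out. Requiring a change of at least 2-fold left 1 higher and 1 lower of the 10, 12 higher and 16 lower of the pathway genes, and 5214 genes in all, by its own construction. Pathway genes called higher numbered 14 with length and GC offsets and 15 with length offsets. The difference in the Cd14 to Tlr4 ratio lay between 1.53 and 1.89 without single libraries, and was 0.719 with length and GC offsets and 0.464 with length offsets, an alternative chosen after the data were seen.

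The labels do not say whether the replicate numbers pair the libraries. Deviations of same-numbered libraries correlated at 0.099, 0.034 and 0.088, which does not settle it. Each cKO library correlated best with its own number, a hint from the data and not from the design. With the replicate number as a block, 9911 genes were called against 9729, and 2 of the 10 genes were higher and 6 lower. Among the 10 genes, depth limits mainly Tlr8, with 43 to 64 counts in cKO.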
